A study of Danio rerio with 12 samples.

Results

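The transcription factor p53 slows or stops the cell cycle through a set of target genes, and the zebrafish genes described here are the ones best known for that arm of its response. They were chosen by name as mdm2, cdkn1a, ccng1, gadd45aa, gadd45ba, gadd45bb, sesn1, sesn2 and btg2. The table of gene names lists the Gadd45 genes without their zebrafish suffix, so every copy of each symbol was taken, and the 9 names gave 10 genes of the 32520 listed. All 10 had enough reads to be tested. RNA-seq was done on ventricles of adult zebrafish of the AB background, collected from below the plane of surgery, with 3 libraries in each of 4 groups. These were mvp mutant hearts at 7 days post amputation of the ventricular apex (mvp 7dpa), mvp mutant hearts after sham surgery (mvp sham), wild-type hearts at 7 days post amputation (WT 7dpa) and wild-type hearts after sham surgery (WT sham). The mvp mutants are mvp-/- in the paper, homozygous for 1 knockout allele made by CRISPR-Cas9. The allele is described as a deletion of the coding region of the major vault protein gene. The number of hearts in a library is not given in the sources used here.

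In an unstressed vertebrate cell the p53 protein is made and destroyed continuously, because Mdm2 marks it for degradation. DNA damage and other stresses stabilise the protein, and target genes such as cdkn1a and mdm2 are the usual transcript readout of that activity. Mdm2 is itself a target and closes a negative feedback loop. The Gadd45 genes, btg2, cdkn1a and sesn2 also respond to inputs that do not need p53, among them growth factors, inflammatory signals and the integrated stress response. Zebrafish heart muscle regrows by division of existing cardiomyocytes, so genes that stop the cell cycle are of interest in a heart that has been cut.

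The libraries held between 21356163 and 26684651 counts, and the least counted of the 10 genes, sesn2, had 8 to 51 counts a library. Levels are given as CPM, the counts of a gene relative to the size of its library after TMM scaling. The targeted gene had 429, 434 and 475 counts in mvp 7dpa libraries and 91, 107 and 108 counts in mvp sham libraries, against 5405, 3444 and 4268 counts in WT 7dpa libraries and 3346, 4384 and 3528 counts in WT sham libraries. The mutant libraries thus kept reads of this gene, and its level in them was 3.58-fold higher at 7dpa than after sham surgery. Counts per whole gene do not show which part of the gene these reads came from. The authors report no mvp mRNA in mutant embryos by qPCR and in situ hybridization, which is another stage and measure. WT 7dpa replicate 1 stood apart from its group. Counts of that library differed from those of the other WT 7dpa libraries with a chi-square of 90.3 and 94.5 per gene, against 2.18 to 9.85 for every other pair of replicates. The coefficient of biological variation was 5.22% in mvp 7dpa and 4.77% in mvp sham libraries, against 26.6% in WT 7dpa and 7.86% in WT sham libraries. Each test used 1 estimate of spread for a gene, shared by the 4 groups. The WT 7dpa libraries thus also entered the standard errors and p-values of comparisons within mvp hearts. Where leaving out WT 7dpa replicate 1 changes a call of 1 of the 10 genes, the value without it is given, a choice of library made after its values had been seen.

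**Figure D1:**
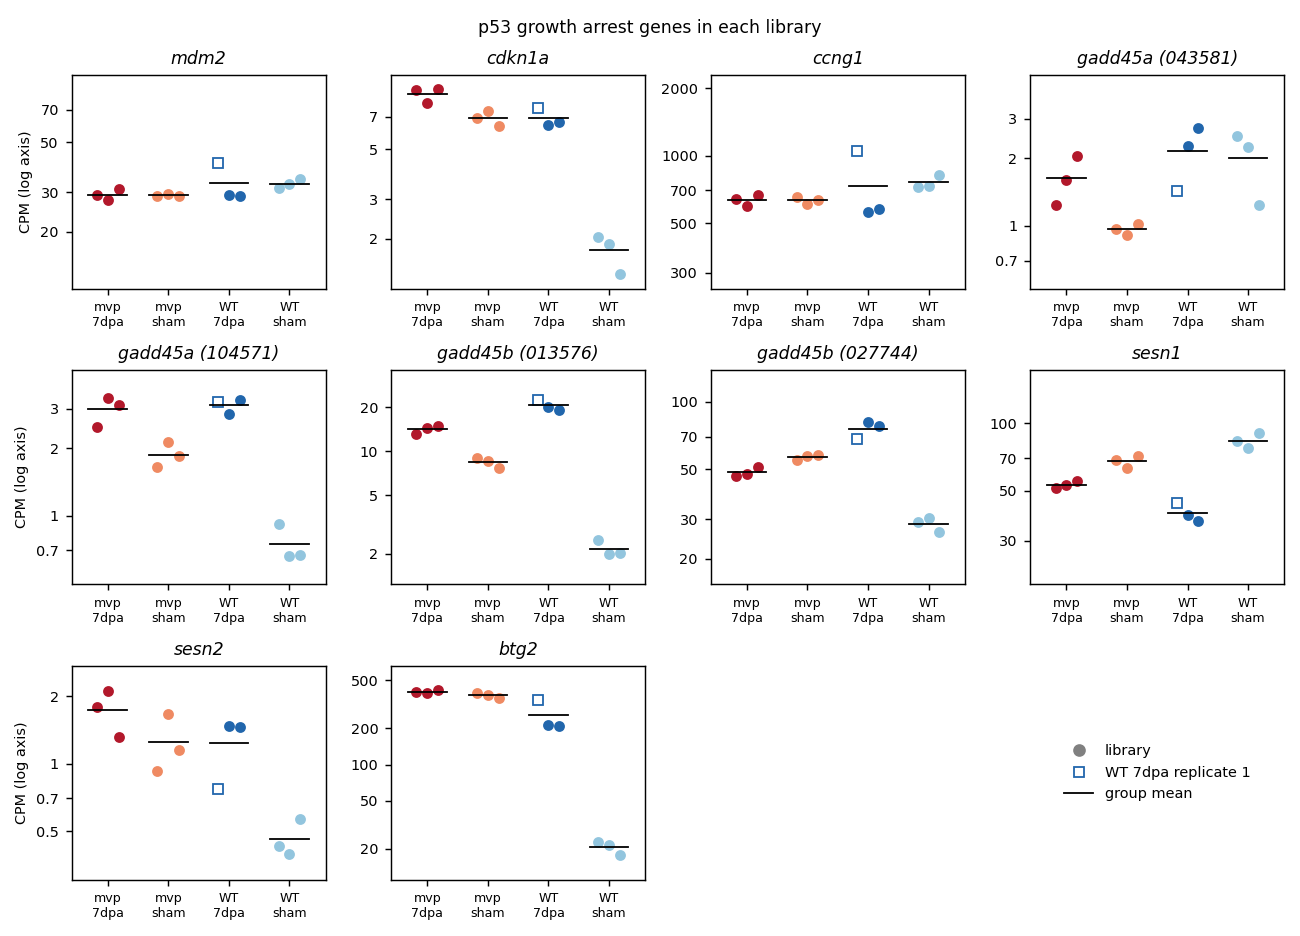
CPM (log axis) of the 10 p53 growth arrest genes in each of the 12 libraries, by group from mvp 7dpa at the left to WT sham at the right, with a line at each group mean. Gadd45 copies carry the last digits of their gene identifiers, and the open square is WT 7dpa replicate 1. For 6 genes the 3 WT sham libraries lie below the 9 other libraries, and for sesn1 they lie above them. The share of all tested genes with either pattern was not counted.

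mdm2 (ENSDARG00000033443), which codes for the ubiquitin ligase that degrades p53, was at a like level in all groups. It had 29.0, 27.6 and 30.9 CPM in mvp 7dpa hearts and 28.7, 29.5 and 28.8 CPM in mvp sham hearts, and 40.4, 29.2 and 28.7 CPM in WT 7dpa hearts and 31.3, 32.6 and 34.3 CPM in WT sham hearts. The 1 high value was that of WT 7dpa replicate 1. No comparison called mdm2, where a gene was called with an adjusted p under 0.05. An adjusted p here and below is from edgeR's quasi-likelihood test on all 12 libraries, with Benjamini-Hochberg adjustment over 16604 genes, and ± gives the standard error of a log2 fold change. Its log2 fold change at 7dpa against sham was 0.01 in mvp hearts, with a 95% interval of -0.24 to 0.25, and 0.00 in WT hearts, with an interval of -0.24 to 0.25. An increase of mdm2 at 7dpa by more than 0.25 on the log2 scale thus lay outside both intervals with TMM scaling, whereas libraries scaled by their totals alone, which moved the median of all genes by 0.27 in mvp and 0.39 in WT hearts, gave mdm2 0.28 (adjusted p = 0.0400) in mvp and 0.39 (adjusted p = 0.00403) in WT hearts. In mvp sham against WT sham hearts the difference was -0.17 ± 0.11 (adjusted p = 0.228), although the 3 mvp libraries all lay below the 3 WT libraries. Without WT 7dpa replicate 1, mdm2 was called lower in mvp sham against WT sham hearts (-0.18, adjusted p = 0.0184) and in WT 7dpa against WT sham hearts (-0.17, adjusted p = 0.0418). With only the 6 sham libraries fitted the first of these was called too (-0.18, adjusted p = 0.0272).

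ccng1 (ENSDARG00000076667) codes for cyclin G1, a p53 target that recruits a phosphatase to Mdm2 and so takes part in the same feedback. Its level was 642, 595 and 670 CPM in mvp 7dpa hearts and 655, 606 and 633 CPM in mvp sham hearts. In WT hearts it was 1052, 559 and 577 CPM at 7dpa and 725, 734 and 820 CPM after sham surgery. The WT 7dpa group thus held the highest library and the 2 lowest. No comparison called ccng1 with all 12 libraries, and the log2 fold change at 7dpa against sham was 0.01 in mvp hearts (95% interval -0.39 to 0.40) and -0.06 in WT hearts (-0.45 to 0.34), where scaling by totals alone gave 0.31 (adjusted p = 0.111). Without WT 7dpa replicate 1, ccng1 was lower in WT 7dpa against WT sham hearts by a log2 fold change of -0.41 ± 0.060 (adjusted p = 1.76e-06) and lower in mvp sham against WT sham hearts (-0.27, adjusted p = 9.01e-05). The difference between sham hearts was also called with only the groups compared (adjusted p = 0.000475) and with voom and group quality weights (adjusted p = 0.0235). In mvp 7dpa against WT 7dpa hearts its difference turned from -0.20 (adjusted p = 0.479) with all libraries to 0.14 (adjusted p = 0.0732) without that one.

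cdkn1a (ENSDARG00000076554) codes for p21, the inhibitor of cyclin-dependent kinases through which p53 stops cells before DNA replication. It had 9.23, 8.05 and 9.28 CPM in mvp 7dpa hearts and 6.87, 7.37 and 6.38 CPM in mvp sham hearts, and 7.68, 6.40 and 6.65 CPM in WT 7dpa hearts and 2.04, 1.89 and 1.39 CPM in WT sham hearts. The WT sham libraries were low and the 9 others were within 6.38 to 9.28 CPM. In WT hearts cdkn1a was 3.89-fold higher at 7dpa than after sham surgery (log2 fold change 1.96 ± 0.16, adjusted p = 3.21e-07). In mvp hearts the same comparison gave 1.29-fold (0.36 ± 0.14, adjusted p = 0.0668), which was not called, although the 3 mvp 7dpa libraries lay above the 3 mvp sham libraries. The mvp sham hearts had 3.86-fold the level of WT sham hearts (1.95 ± 0.16, adjusted p = 4.34e-07). Between genotypes at 7dpa the difference was 0.36 ± 0.13 (adjusted p = 0.0813). Both uncalled differences passed the threshold without WT 7dpa replicate 1, at 0.36 (adjusted p = 0.0133) for mvp 7dpa against mvp sham and 0.42 (adjusted p = 0.0108) for mvp 7dpa against WT 7dpa. The increase in mvp hearts was also called with at least 10 counts required in every library (0.40, adjusted p = 0.0380), with only the groups compared (0.38, adjusted p = 0.00618), with voom and group quality weights (0.37, adjusted p = 0.00743), with totals alone (0.64, adjusted p = 0.00208) and without WT sham replicate 3 (0.36, adjusted p = 0.0453).

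btg2 (ENSDARG00000020298), whose product slows proliferation and takes part in shortening of mRNA tails, had the largest log2 fold changes among the 10 genes in both of the comparisons with WT sham hearts. Its level was 403, 391 and 414 CPM in mvp 7dpa hearts and 390, 381 and 353 CPM in mvp sham hearts. In WT hearts it was 346, 214 and 207 CPM at 7dpa and 22.9, 21.4 and 17.7 CPM after sham surgery. All 6 mvp libraries were above all 6 WT libraries, and the lowest WT 7dpa library was still far above the highest WT sham library. In WT hearts btg2 was 12.4-fold higher at 7dpa than after sham surgery (3.63 ± 0.18, adjusted p = 4.03e-09), whereas in mvp hearts the fold was 1.07 (0.10 ± 0.16, adjusted p = 0.669, 95% interval of the log2 fold change -0.24 to 0.44). The value in mvp hearts was called with only the groups compared (0.11, adjusted p = 0.0409) and with totals alone (0.38, adjusted p = 0.0423). After sham surgery btg2 was 18.1-fold higher in mvp than in WT hearts (4.18 ± 0.18, adjusted p = 1.07e-09). At 7dpa it was 1.57-fold higher in mvp hearts (0.65 ± 0.16, adjusted p = 0.0116). That last call was lost when the 6 libraries at 7dpa were fitted alone (adjusted p = 0.0817), and the difference was 0.91 (adjusted p = 3.43e-11) without WT 7dpa replicate 1.

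The Gadd45 proteins are small stress proteins that bind cell cycle kinases and stress kinase regulators, and in mammals Gadd45a is the classical p53 target among them. The 2 genes listed as gadd45a did not move together. The copy ENSDARG00000104571 had 2.48, 3.34 and 3.11 CPM in mvp 7dpa hearts and 1.64, 2.12 and 1.85 CPM in mvp sham hearts, and 3.21, 2.84 and 3.28 CPM in WT 7dpa hearts and 0.913, 0.659 and 0.669 CPM in WT sham hearts. The 7dpa libraries lay above the sham libraries in each genotype and overlapped between genotypes. It was higher at 7dpa in WT hearts (2.06 ± 0.21, adjusted p = 2.81e-06) and in mvp hearts (0.67 ± 0.19, adjusted p = 0.0183), and higher in mvp sham than in WT sham hearts (1.33 ± 0.22, adjusted p = 0.000256). The call in mvp hearts was lost without mvp sham replicate 1 or 3 or mvp 7dpa replicate 2 or 3, with adjusted p-values of up to 0.0773.

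The other copy, gadd45a ENSDARG00000043581, had 1.24, 1.61 and 2.04 CPM in mvp 7dpa hearts and 0.974, 0.909 and 1.02 CPM in mvp sham hearts. Its level was 1.43, 2.28 and 2.74 CPM in WT 7dpa hearts and 2.52, 2.24 and 1.24 CPM in WT sham hearts, so the WT groups overlapped. It was called in 1 comparison, lower in mvp sham than in WT sham hearts (-1.04 ± 0.33, adjusted p = 0.0175), the opposite direction to the first copy. These values rest on 18 to 86 counts a library, and the call was lost without WT sham replicate 1, WT sham replicate 2 or mvp sham replicate 2 (adjusted p of up to 0.0748). Without WT 7dpa replicate 1 it was also higher in mvp 7dpa than in mvp sham hearts (0.74, adjusted p = 0.0330) and lower in mvp 7dpa than in WT 7dpa hearts (-0.65, adjusted p = 0.0360). The increase in mvp hearts was also called with only the groups compared (0.76, adjusted p = 0.0183) and with totals alone (1.02, adjusted p = 0.0297). Reads that fit more than 1 copy could have been split or lost in the authors' counting, so values of single Gadd45 copies carry that uncertainty.

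Both genes listed as gadd45b, which in mammals answers to inflammatory and growth factor signals as well as to damage, were higher after resection in WT hearts and were already above WT sham in mvp sham hearts. The copy ENSDARG00000013576 had 13.2, 14.4 and 15.0 CPM in mvp 7dpa hearts and 9.03, 8.64 and 7.72 CPM in mvp sham hearts, and 22.5, 20.2 and 19.3 CPM in WT 7dpa hearts and 2.47, 1.98 and 2.01 CPM in WT sham hearts. No group overlapped another. It was 9.62-fold higher at 7dpa in WT hearts (3.27 ± 0.12, adjusted p = 4.15e-10) and 1.68-fold higher in mvp hearts (0.75 ± 0.11, adjusted p = 0.000273). After sham surgery it was 3.94-fold higher in mvp than in WT hearts (1.98 ± 0.13, adjusted p = 5.17e-08), and at 7dpa it was lower in mvp hearts (-0.54 ± 0.10, adjusted p = 0.00294).

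The copy gadd45b ENSDARG00000027744 had 46.9, 47.9 and 51.0 CPM in mvp 7dpa hearts and 55.1, 57.2 and 58.0 CPM in mvp sham hearts, so the mvp libraries were lower at 7dpa than after sham surgery without overlap. In WT hearts it had 68.2, 81.1 and 78.2 CPM at 7dpa and 29.1, 30.5 and 26.4 CPM after sham surgery. Resection came with a 2.64-fold higher level in WT hearts (1.40 ± 0.081, adjusted p = 1.76e-08), against a log2 fold change of -0.23 ± 0.079 in mvp hearts (adjusted p = 0.0513, not called). It was higher in mvp sham than in WT sham hearts (0.99 ± 0.081, adjusted p = 4.92e-07) and lower in mvp 7dpa than in WT 7dpa hearts (-0.64 ± 0.079, adjusted p = 0.000142). The value in mvp hearts was called without WT 7dpa replicate 1 (-0.23, adjusted p = 0.00285), with only the groups compared (-0.22, adjusted p = 0.00221), with voom (-0.23, adjusted p = 0.00502) and, at adjusted p-values of 0.0427 to 0.0499, without WT sham replicate 2 or 3 or WT 7dpa replicate 2. With libraries scaled by their totals alone it was 0.05 (adjusted p = 0.680).

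The sestrins restrain the growth kinase mTORC1, and in mammals SESN1 is mainly a p53 target whereas SESN2 also answers to the integrated stress response. sesn1 (ENSDARG00000020693) was the only one of the 10 genes that was called lower at 7dpa with all 12 libraries, and it was so in both genotypes. It had 51.5, 53 and 55.4 CPM in mvp 7dpa hearts and 68.4, 63.2 and 71.5 CPM in mvp sham hearts, and 44.3, 38.9 and 36.8 CPM in WT 7dpa hearts and 83.4, 77.9 and 90.2 CPM in WT sham hearts. No group overlapped another. The log2 fold change at 7dpa against sham was -0.34 ± 0.083 (adjusted p = 0.00851) in mvp hearts and -1.07 ± 0.084 (adjusted p = 2.95e-07) in WT hearts. Between genotypes it was lower in mvp hearts after sham surgery (-0.31 ± 0.083, adjusted p = 0.00767) and higher in mvp hearts at 7dpa (0.41 ± 0.084, adjusted p = 0.00434). The decrease in mvp hearts was not called with libraries scaled by their totals alone (-0.07, adjusted p = 0.521).

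sesn2 (ENSDARG00000070012) was the least counted of the 10 genes. It had 1.78, 2.1 and 1.31 CPM in mvp 7dpa hearts and 0.923, 1.67 and 1.16 CPM in mvp sham hearts, and 0.768, 1.48 and 1.46 CPM in WT 7dpa hearts and 0.430, 0.395 and 0.566 CPM in WT sham hearts. The WT sham libraries were below all others, and the other 3 groups overlapped. It was higher in WT 7dpa than in WT sham hearts (1.41 ± 0.36, adjusted p = 0.00415) and higher in mvp sham than in WT sham hearts (1.42 ± 0.37, adjusted p = 0.00568). In mvp 7dpa against mvp sham hearts the difference was 0.47 ± 0.31 (adjusted p = 0.286), and in mvp 7dpa against WT 7dpa hearts it was 0.49 ± 0.30 (adjusted p = 0.276). The 95% intervals of these differences reached 1.13 on the log2 scale, so changes of sesn2 up to that size lay within them at this depth.

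**Figure D2:**
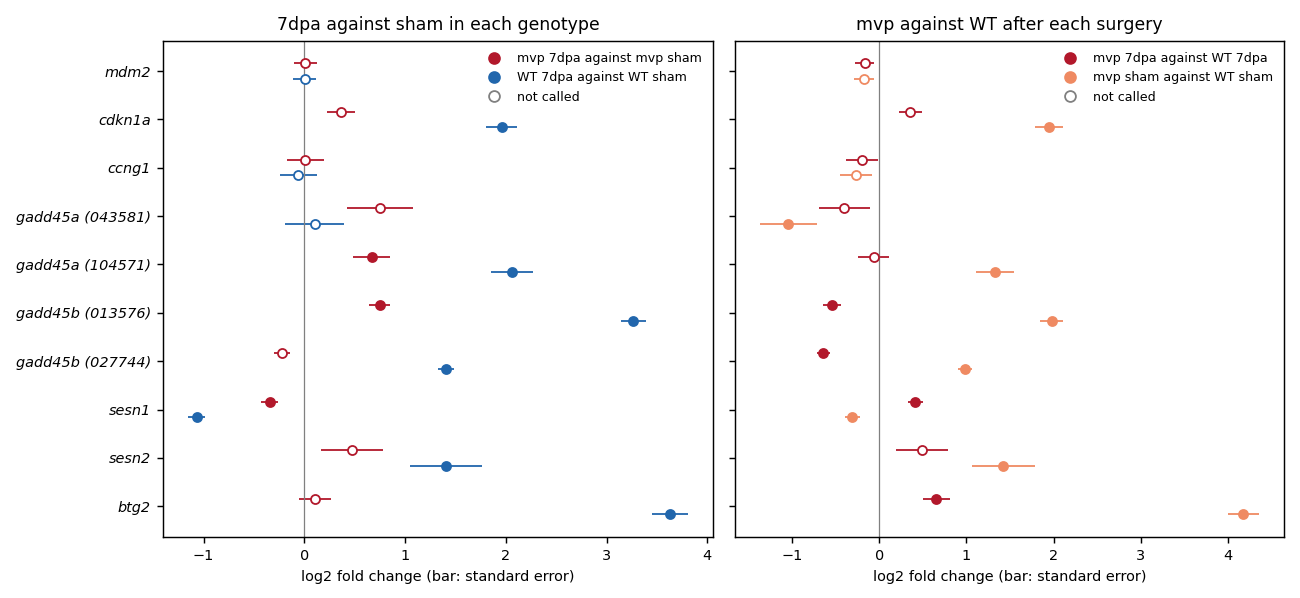
Log2 fold change of the 10 p53 growth arrest genes, with bars of 1 standard error, at 7dpa against sham in each genotype (left) and in mvp against WT hearts after each surgery (right). Filled points passed an adjusted p of 0.05. btg2, for example, is at 0.10 in mvp and 3.63 in WT hearts on the left, and at 0.65 at 7dpa and 4.18 after sham surgery on the right.

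Of the 10 genes, 2 were called higher and 1 lower in mvp 7dpa against mvp sham hearts, where 26.3% of all tested genes were called, 12.9% higher and 13.4% lower. In WT 7dpa against WT sham hearts 6 were called higher and 1 lower, against 59.4% of all tested genes, 31.6% higher and 27.8% lower. On the log2 scale the 10 genes had a median change of 0.23 in mvp hearts and 1.41 in WT hearts, beside 0.02 and 0.01 over all tested genes. Between sham hearts (mvp against WT) 6 were higher and 2 lower, with 49.5% of all tested genes called, 25.3% higher and 24.2% lower, and a median of 1.16 for the 10 genes and -0.00 for all. In mvp 7dpa against WT 7dpa hearts 2 were higher (btg2 and sesn1) and 2 lower (both gadd45b copies), with 19.5% of all tested genes called, 8.94% higher and 10.6% lower, and a median of -0.12 for the 10 genes and -0.02 for all. WT sham libraries are the reference in the WT response and in the comparison of sham hearts, so the values of these comparisons are not independent of each other. The WT sham libraries lay below the 9 others for 6 of the genes, and the share of all tested genes with this pattern was not counted. They also stood apart in the share of counts in mitochondrial genes, which was 10.5% to 10.6% in mvp 7dpa and 10.3% to 10.6% in mvp sham libraries, against 10.7% to 13.5% in WT 7dpa and 14.6% to 15.1% in WT sham libraries. The top 20 genes took 41.4% of counts in mvp 7dpa and 44.8% to 45.5% in mvp sham libraries, against 39.4% to 40.7% in WT 7dpa and 50.6% to 51.6% in WT sham libraries. With the mitochondrial and the top 20 genes left out of the fit, the numbers of the 10 genes called higher and lower were the same in each comparison.

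The difference of the responses, mvp 7dpa against mvp sham minus WT 7dpa against WT sham, was tested in the same model. It was negative and called for 5 of the 10 genes and positive and called for 1, beside 19.9% and 15.2% of all tested genes (35% in either direction). btg2 differed by -3.53 ± 0.23 (adjusted p = 1.90e-07) and the gadd45b copy ENSDARG00000013576 by -2.52 ± 0.16 (adjusted p = 1.74e-07). The other gadd45b copy, ENSDARG00000027744, differed by -1.63 ± 0.11 (adjusted p = 2.90e-07), cdkn1a by -1.59 ± 0.21 (adjusted p = 8.08e-05) and the gadd45a copy ENSDARG00000104571 by -1.39 ± 0.28 (adjusted p = 0.00222). sesn1, which was lower at 7dpa in both genotypes, differed by 0.72 ± 0.12 (adjusted p = 0.000496), so that its decrease was smaller in mvp hearts. For the 5 genes with a negative difference, the mvp sham level was above the WT sham level, and this is part of the same contrast. The remaining genes were not called, with 0.01 for mdm2 (adjusted p = 0.984), 0.07 for ccng1 (adjusted p = 0.860), 0.64 for gadd45a ENSDARG00000043581 (adjusted p = 0.278) and -0.94 for sesn2 (adjusted p = 0.142). Without WT 7dpa replicate 1 sesn2 was called at -1.21 (adjusted p = 0.0208) and ccng1 at 0.41 (adjusted p = 0.000127).

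Leaving out WT 7dpa replicate 1 moved the numbers of calls. Of the 10 genes, 4 were then higher and 2 lower in mvp 7dpa against mvp sham hearts, beside 20.8% and 20.4% of 17074 tested genes, and 6 were higher and 3 lower in WT 7dpa against WT sham hearts, beside 35.2% and 31.9%. In mvp sham against WT sham hearts 6 were higher and 4 lower, beside 29.6% in each direction, and in mvp 7dpa against WT 7dpa hearts 3 were higher and 3 lower, beside 14.7% and 20.2%. For the difference of the responses 2 were positive and 6 negative, beside 21.9% and 28%. For cdkn1a, both gadd45b copies, gadd45a ENSDARG00000104571, sesn1, sesn2 and btg2, each call in the comparisons of 2 groups was also made without this library, in the same direction.

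**Figure D3:**
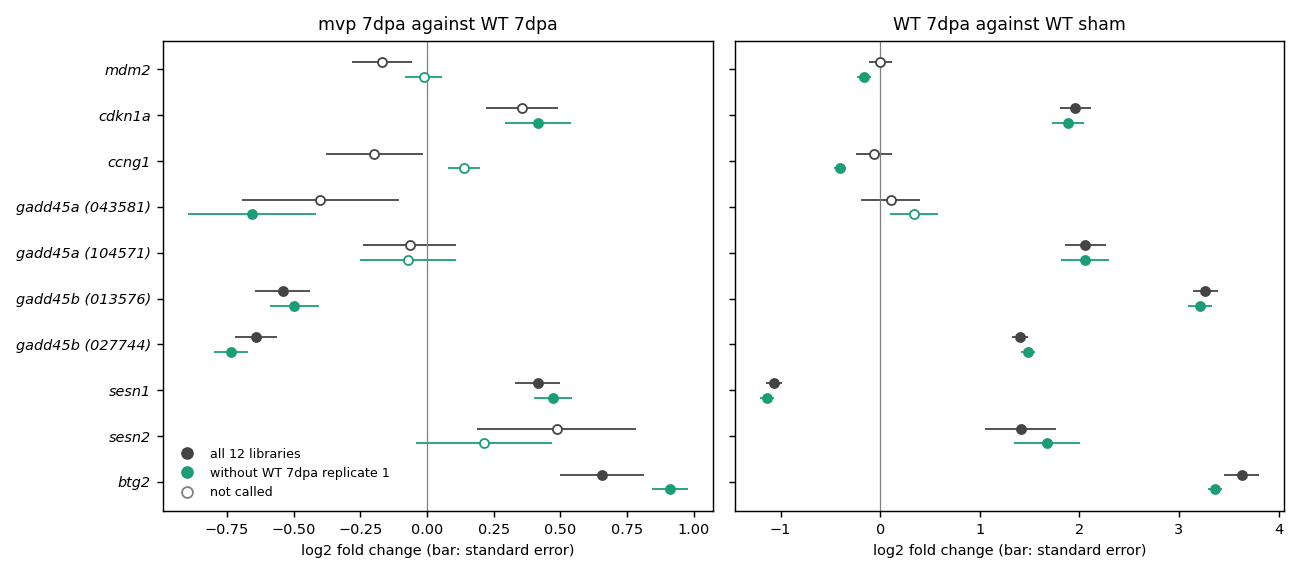
Log2 fold change of the 10 genes with bars of 1 standard error, in mvp 7dpa against WT 7dpa hearts (left) and in WT 7dpa against WT sham hearts (right), with all 12 libraries and without WT 7dpa replicate 1. ccng1 moves from -0.20 to 0.14 on the left and from -0.06 to -0.41 on the right, whereas gadd45b ENSDARG00000013576 moves from -0.54 to -0.50 on the left.

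Genes that act around p53 were also counted by direction, from lists chosen by role with earlier results of these data known. Over all tested genes 26.3% were called in mvp 7dpa against mvp sham hearts, 59.4% in WT 7dpa against WT sham hearts, 49.5% in mvp sham against WT sham hearts and 19.5% in mvp 7dpa against WT 7dpa hearts, and the share of each list called is given beside these. The list of p53 relatives, modifying kinases and ubiquitin regulators held 15 tested genes, of which 2 were higher and 4 lower (40% called, against 26.3%) in mvp 7dpa against mvp sham hearts, and 2 higher and 11 lower (86.7%, against 59.4%) in WT 7dpa against WT sham hearts. The higher genes were the checkpoint kinases chek1, with log2 fold changes of 1.65 in mvp and 2.39 in WT hearts, and chek2, with 1.36 in mvp and 1.73 in WT hearts. The chek1 values rest on few reads, with 12, 9 and 1 counts in mvp sham and 9, 9 and 9 counts in WT sham libraries. Its adjusted p was 0.0171 in mvp and 0.000274 in WT hearts. hipk2, a kinase that activates p53, was lower in both genotypes (-0.91 in mvp hearts, adjusted p = 0.00149, and -1.0 in WT hearts, adjusted p = 0.000181). After sham surgery 7 were called in mvp against WT hearts (46.7%, against 49.5%) and these were lower, among them tp63 (-0.87) and cop1, a ubiquitin ligase of p53 (-0.79). At 7dpa 1 was higher and 1 lower between genotypes (13.3%, against 19.5%), usp7 at 0.23 (adjusted p = 0.0437) and chek2 at -0.66 (adjusted p = 0.0265).

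Other members of the same growth arrest families gave 14 tested genes. Of these 3 were called, all lower, in mvp 7dpa against mvp sham hearts (21.4%, against 26.3% of all genes), and 5 were higher and 3 lower in WT 7dpa against WT sham hearts (57.1%, against 59.4%). After sham surgery 6 were higher and 3 lower in mvp against WT hearts (64.3%, against 49.5%), and at 7dpa 3 were higher and 1 lower (28.6%, against 19.5%). tob1, a relative of btg2, had 376, 374 and 368 CPM in mvp 7dpa hearts and 508, 512 and 490 CPM in mvp sham hearts, and 298, 217 and 233 CPM in WT 7dpa hearts and 106, 109 and 105 CPM in WT sham hearts. As for btg2, all mvp libraries were above all WT libraries. Its log2 fold change was -0.43 at 7dpa in mvp hearts, 1.23 at 7dpa in WT hearts, 2.24 between the genotypes after sham surgery and 0.58 at 7dpa, each called. The gadd45g copy ENSDARG00000019417 was higher in WT 7dpa than in WT sham hearts (2.14, adjusted p = 8.67e-09) and in mvp sham than in WT sham hearts (2.03, adjusted p = 1.30e-08). cdkn1cb, a kinase inhibitor related to cdkn1a, had 0 counts in the WT sham libraries and was at least 2.94-fold higher in WT 7dpa hearts and at least 2.77-fold higher in mvp sham hearts, against a floor of 3 counts a library. These folds rest on 11 to 15 counts in WT 7dpa and 7 to 11 counts in mvp sham libraries. Its relative cdkn1ca went the other way. It was lower than in WT sham hearts by -1.64 in WT 7dpa (adjusted p = 0.000843) and -1.97 in mvp sham hearts (adjusted p = 0.000408).

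The list of p53 target genes of cell death had 4 of 16 called, all higher, in mvp 7dpa against mvp sham hearts (25%, against 26.3% of all genes), and 5 higher and 5 lower in WT 7dpa against WT sham hearts (62.5%, against 59.4%). It had 2 higher and 7 lower in mvp sham against WT sham hearts (56.2%, against 49.5%), and 3 called, all lower, in mvp 7dpa against WT 7dpa hearts (18.8%, against 19.5%), so that the shares called were near those of all genes. phlda3, which restrains Akt signalling in mammals, was higher at 7dpa in mvp hearts (0.56, adjusted p = 0.000247) and in WT hearts (2.33, adjusted p = 3.85e-10), and higher in mvp sham than in WT sham hearts (1.74, adjusted p = 3.50e-09). bbc3, which codes for the death activator Puma, had 1.05, 1.24 and 1.27 CPM in mvp 7dpa hearts and 0.769, 0.606 and 1.20 CPM in mvp sham hearts, and 3.35, 0.999 and 0.668 CPM in WT 7dpa hearts and 5.64, 6.54 and 6.13 CPM in WT sham hearts. It was thus highest in WT sham hearts, where the 6 genes above were lowest. Its log2 fold change was -1.86 in WT 7dpa against WT sham hearts (adjusted p = 0.00193) and -2.81 in mvp sham against WT sham hearts (adjusted p = 0.000270). Of 15 p53 target genes of repair and metabolism, 4 were higher and 2 lower in mvp 7dpa against mvp sham hearts (40%), 8 higher and 2 lower in WT 7dpa against WT sham hearts (66.7%), 4 higher and 3 lower in mvp sham against WT sham hearts (46.7%), and 3 higher and 2 lower in mvp 7dpa against WT 7dpa hearts (33.3%), beside 26.3%, 59.4%, 49.5% and 19.5% of all genes. The stress kinase gene plk3 was higher in the first 3 of these (0.74, 2.63 and 1.92). In the same 3 comparisons gls2 ENSDARG00000002917, of the same list, was called lower (-1.04, -2.61 and -1.77).

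The list of stress and early response genes held 20 tested genes. Between sham hearts (mvp against WT) 15 were higher and 4 lower (95%, against 49.5% of all genes), with a median log2 fold change of 1.62. In WT 7dpa against WT sham hearts 13 were higher and 4 lower (85%, against 59.4%), with a median of 1.17, and in mvp 7dpa against mvp sham hearts 5 were higher and 2 lower (35%, against 26.3%), with a median of 0.08. In mvp 7dpa against WT 7dpa hearts 10 were higher and 1 lower (55%, against 19.5%), with a median of 0.31. atf3, a transcription factor of the integrated stress response, had 352, 346 and 337 CPM in mvp 7dpa hearts and 565, 566 and 550 CPM in mvp sham hearts, and 198, 195 and 187 CPM in WT 7dpa hearts and 3.28, 3.43 and 2.78 CPM in WT sham hearts. The WT sham libraries were low here too, and the mvp libraries were above the WT libraries after each surgery. Its log2 fold change in mvp sham against WT sham hearts was 7.46 ± 0.089 (adjusted p = 6.70e-15). The immediate early gene junb ENSDARG00000074378 was higher in mvp sham than in WT sham hearts by 4.78 and in WT 7dpa than in WT sham hearts by 5.38. ddit4, an inhibitor of mTORC1, had at most 1 count in a WT sham library and was at least 8.42-fold higher in mvp sham hearts and at least 15.6-fold higher in WT 7dpa hearts.

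Cell cycle genes were counted because some of the 10 genes, such as cdkn1a, act on the cycle. Of 22 tested, 18 were called in mvp 7dpa against mvp sham hearts (81.8%, against 26.3% of all genes) and 19 in WT 7dpa against WT sham hearts (86.4%, against 59.4%), and the called genes were higher. After sham surgery 3 were higher and 7 lower in mvp against WT hearts (45.5%, against 49.5%), and in mvp 7dpa against WT 7dpa hearts 1 was higher and 16 lower (77.3%, against 19.5%). ccna2, the cyclin of DNA replication, had 4.81, 5.32 and 4.66 CPM in mvp 7dpa hearts and 0.667, 0.606 and 0.648 CPM in mvp sham hearts, and 12.9, 13.7 and 13.6 CPM in WT 7dpa hearts and 1.29, 1.19 and 0.824 CPM in WT sham hearts. The 7dpa libraries were above the sham libraries in both genotypes, and the WT libraries above the mvp libraries after each surgery. mki67, the proliferation marker, was lower in mvp 7dpa than in WT 7dpa hearts by a log2 fold change of -1.72 (adjusted p = 0.000469). For the difference of the responses, where 15.2% of all tested genes were called positive and 19.9% negative, 2 of the 20 stress and early response genes were called positive and 11 negative, against 5 positive of the 15 p53 relatives and regulators, 3 positive and 6 negative of the 14 other growth arrest genes, 5 and 4 of the 16 death genes, 2 and 4 of the 15 repair and metabolism genes and 1 and 9 of the 22 cell cycle genes. Without WT 7dpa replicate 1 the number called in mvp 7dpa against mvp sham hearts became 5, all lower, of the other growth arrest genes, 6 higher and 1 lower of the death genes, and 8 higher and 3 lower of the stress and early response genes, beside 41.2% of all tested genes. There it was 2 higher and 5 lower of the p53 relatives and regulators, and 6 higher and 3 lower of the repair and metabolism genes. Of the cell cycle genes 19 were called, all higher. In mvp 7dpa against WT 7dpa hearts the number called became 1 higher and 3 lower of the p53 relatives and regulators, 5, all lower, of the death genes, and 5 higher and 3 lower of the repair and metabolism genes, beside 34.9%. There 4 other growth arrest genes were higher and 2 lower, and 11 stress and early response genes were higher and 3 lower. Of the cell cycle genes 1 was higher and 19 lower.

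**Figure D4:**
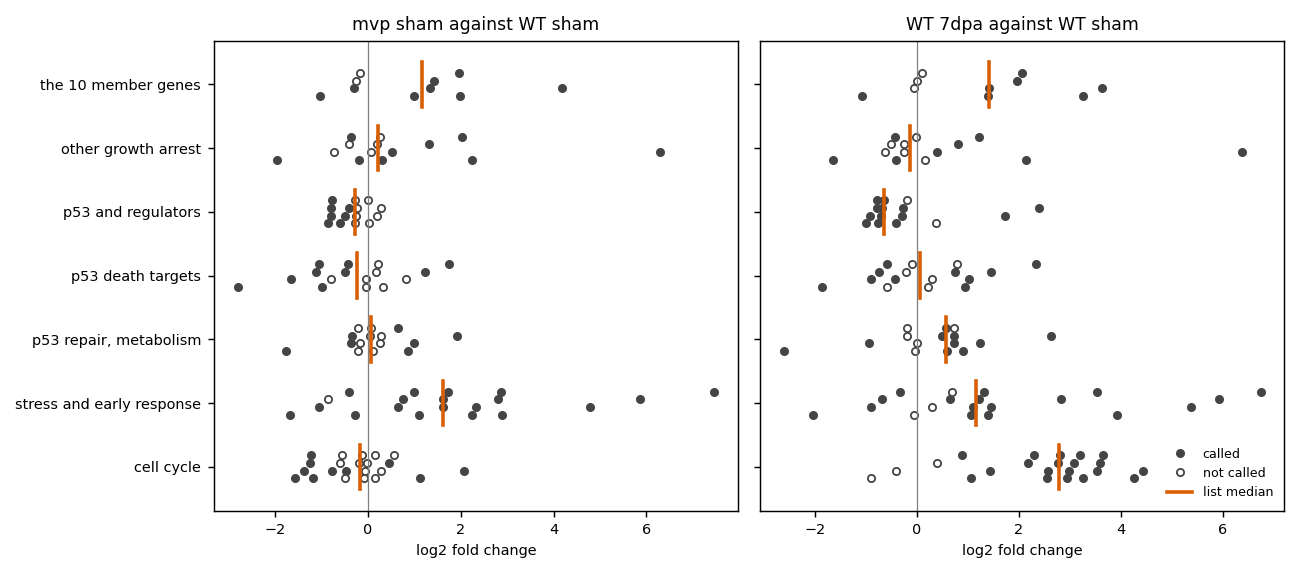
Log2 fold change of every tested gene of the 7 lists in mvp sham against WT sham hearts (left) and in WT 7dpa against WT sham hearts (right), with called genes filled and the median of each list as a bar. The medians of the 10 growth arrest genes are 1.16 on the left and 1.41 on the right, those of the stress and early response genes 1.62 and 1.17, and those of the cell cycle genes -0.17 and 2.79.

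Among all tested genes with a symbol, the genes whose log2 CPM followed each of the 10 most closely over the 12 libraries were found by Pearson's r. These correlations describe 12 libraries that fall into 4 groups and share depth and tissue composition. The nearest genes to btg2 were ccn1 (r = 0.999), a matricellular early response gene, hsp70.3 (r = 0.996), a heat shock chaperone, and ackr3 (r = 0.995), a chemokine scavenger. The nearest to cdkn1a was pim1 (r = 0.992), a kinase gene, and cdkn1a and btg2 followed each other with r = 0.985. mdm2 and ccng1 were each among the 3 nearest genes of the other (r = 0.956), and both had their highest level in WT 7dpa replicate 1. With cdkn1a, mdm2 had r = -0.34. The nearest to the gadd45a copies were map1s (r = 0.995) for ENSDARG00000104571 and ap5s1 (r = 0.910) for ENSDARG00000043581, and r between the copies was 0.02. The nearest to the gadd45b copies were rdh10 (r = 0.990) for ENSDARG00000013576 and asf1b (r = 0.985) for ENSDARG00000027744, and r between these copies was 0.908. The nearest to sesn1 was eif3cl (r = 0.986) and to sesn2 rfx1 (r = 0.967).

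Markers of cell types moved with the groups in these bulk ventricles, where fewer cells of a type and less RNA per cell cannot be told apart. The summed level of 9 cardiomyocyte markers was 39330 to 39979 CPM in mvp 7dpa and 50497 to 53206 CPM in mvp sham libraries, against 34178 to 43204 CPM in WT 7dpa and 48205 to 55913 CPM in WT sham libraries. That of the macrophage markers was 1018 to 1058 CPM in mvp 7dpa and 572 to 607 CPM in mvp sham libraries, against 1031 to 1798 CPM in WT 7dpa and 254 to 277 CPM in WT sham libraries, and that of 9 epicardial and fibroblast markers was 1395 to 1422, 496 to 514, 1148 to 2063 and 251 to 284 CPM in the same order of groups. Of 12 tested macrophage markers 12 were higher in WT 7dpa against WT sham hearts (100%, against 59.4% of all genes called). In mvp sham against WT sham hearts 8 were higher and 1 lower (75%, against 49.5%). Of the 17 matched, the mpeg1 copy ENSDARG00000078569 had no count in any mvp or WT sham library and the mfap4 copy ENSDARG00000038683 none in WT sham libraries. The erythrocyte markers, of which 4 of 5 matched were tested, summed to 698 to 751 CPM in mvp 7dpa and 325 to 343 CPM in mvp sham libraries, against 210 to 634 CPM in WT 7dpa and 183 to 233 CPM in WT sham libraries. The liver markers, of which 1 of 3 matched was tested, summed to 281 to 293 CPM in mvp 7dpa and 77.3 to 83.3 CPM in mvp sham libraries, against 203 to 250.4 CPM in WT 7dpa and 26.7 to 29.4 CPM in WT sham libraries. Of these markers fabp10a had no count in any mvp sham library, and apoa2 none in any mvp sham or WT sham library. The liver sum in mvp sham libraries was thus that of tfa alone. Between sham groups the sums of macrophage, lymphocyte, erythrocyte, epicardial and fibroblast, endothelial, thrombocyte and liver markers did not overlap, and those of cardiomyocyte, neutrophil and skeletal muscle markers did. A sum can rest on few genes. In mvp sham against WT sham hearts only 1 of 3 tested lymphocyte markers had a log2 fold change above 0 (median -0.57). There 5 of 9 epicardial and fibroblast markers were called higher and 2 lower, and 4 of 9 cardiomyocyte markers higher and 0 lower, beside 49.5% of all genes called. The part of these cells in the values of the 10 genes was not tested. In WT 7dpa replicate 1 the lymphocyte markers summed to 13.2 CPM, against 153 and 160 CPM in the other WT 7dpa libraries, and the macrophage markers to 1031 CPM, against 1797 and 1798 CPM. In the same library the erythrocyte markers summed to 634 CPM, against 210 and 217 CPM, and the epicardial and fibroblast markers to 2063 CPM, against 1200 and 1148 CPM. In mvp 7dpa libraries the lymphocyte markers summed to 12.1 to 14.7 CPM. The lymphocyte and macrophage sums of WT 7dpa replicate 1 were thus near those of mvp 7dpa libraries. Its erythrocyte sum lay between those of mvp 7dpa and the other WT 7dpa libraries, and its epicardial and fibroblast sum was above both.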

How the data were processed

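The authors aligned reads of the 12 low-input libraries with HISAT2 2.1.0 to GRCz11 and counted them per Ensembl gene with featureCounts 1.6.0, per the submitters' processing notes. The annotation release, the strand setting and the handling of reads with several matches are not given in the sources used here. The deposited values are whole-number counts per gene that the authors did not normalize. Symbols came from a name table that covered 29201 of 32520 identifiers.

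The tests were run with edgeR 4.0.16 in R 4.3.3 (filterByExpr by group, TMM, quasi-likelihood test, a mean per group over all 12 libraries, Benjamini-Hochberg over 16604 genes, threshold 0.05). CPM used TMM-scaled sizes (factors 0.854 to 1.185), and log2 CPM for correlations used a prior count of 2. Standard errors are the log2 fold change divided by the root of F, and 95% intervals use the test's degrees of freedom. In the libraries of smallest and largest TMM-scaled size (WT sham replicate 1 and WT 7dpa replicate 3) 3 counts were 0.161 and 0.0955 CPM. The scripts were tested on simulated data.

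Every one of the 10 genes, up to 4 called genes per list and comparison with the largest log2 fold change, and the 3 most correlated genes of each were open to naming. A gene of 1 list is not reported here and was left out of the counts of that list. Members, lists and rules were chosen with earlier results of these data known. Alternatives were DESeq2 1.42.0 (its Wald test and its size factors), other count filters, only the groups compared, a replicate block, thinned counts, removal of mitochondrial and the top 20 genes, limma 3.58.1 voom with group weights, a minimum log2 fold change of 1 and each library left out. Scaling by totals alone was added after seeing the data. Nothing in the labels says that replicates came from separate cohorts, so p-values measure the spread between these libraries. That spread was estimated over the 4 groups together, not from the 2 groups compared. For btg2 in mvp 7dpa against mvp sham hearts the standard error was 0.16 with all 12 libraries and 0.058 without WT 7dpa replicate 1.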

Additional observations from a re-analysis of the deposited data

Results flagged for a closer look

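For 6 of the 10 p53 growth arrest genes the response to resection differed between mvp and WT hearts by the test of the difference itself (mvp response minus WT response, log2 scale, edgeR, 3 libraries a group, 35% of all tested genes called in either direction). The difference was -3.53 ± 0.23 (adjusted p = 1.90e-07) for btg2 and -2.52 ± 0.16 (adjusted p = 1.74e-07) for gadd45b ENSDARG00000013576. It was -1.63 ± 0.11 (adjusted p = 2.90e-07) for gadd45b ENSDARG00000027744, -1.59 ± 0.21 (adjusted p = 8.08e-05) for cdkn1a and -1.39 ± 0.28 (adjusted p = 0.00222) for gadd45a ENSDARG00000104571. For sesn1 it was 0.72 ± 0.12 (adjusted p = 0.000496). For the genes with a negative difference, the mvp sham level was above the WT sham level, and this is part of the same contrast. Between genotypes at 7dpa, cdkn1a (0.36, adjusted p = 0.0813) and gadd45a ENSDARG00000104571 (-0.07, adjusted p = 0.831) were not called. There btg2 was higher in mvp hearts (0.65), and gadd45b ENSDARG00000013576 (-0.54) and ENSDARG00000027744 (-0.64) were lower. The 4 groups had 3 libraries each, too few for a check of single outlying libraries by their gaps.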

How the results depend on the processing

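Of the 10 genes, 3 were called in mvp 7dpa against mvp sham hearts, beside 26.3% of all tested genes. This number was 7 with only the groups compared (45.5% of all tested genes), 5 with voom and group quality weights (41.1%), 6 with scaling by totals alone (37.3%), 0 with a minimum log2 fold change of 1 (7.62%) and 2 to 6 when libraries were left out one at a time (5 without WT sham replicate 3, beside 24.5%, and 6 without WT 7dpa replicate 1, beside 41.2%). In mvp 7dpa against WT 7dpa hearts the 4 calls became 0 with that minimum (6.77% of all tested genes), since no difference reached it. The cause of the other changes was not tested. Scaling by totals alone moved the median of all genes by 0.27 in mvp 7dpa against mvp sham hearts and 0.39 in WT 7dpa against WT sham hearts. The share of calls that were higher was then 88.1% (49.2% with TMM) and 80.4% (53.2%), and it was 32.2% (45.7%) in mvp 7dpa against WT 7dpa hearts and 32.4% (43.3%) for the difference of responses. With that scaling mdm2 was called higher at 7dpa, by 0.28 in mvp hearts (adjusted p = 0.0400) and 0.39 in WT hearts (adjusted p = 0.00403), both within 0.01 of those medians.

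No reversed value had been called with all 12 libraries, and mdm2 in WT 7dpa against WT sham hearts was called at its reversed value without WT 7dpa replicate 1. mdm2 in WT 7dpa against WT sham hearts was -0.0057 with the replicate block, -0.0072 with thinned counts and -0.015 with voom. Its difference of responses was -0.00081 with DESeq2's size factors, -0.0057 with its Wald test, -0.00085 with no filter, -0.018 with at least 10 counts in every library and -0.10 with totals alone. With totals alone ccng1 was 0.31 in WT 7dpa against WT sham hearts and -0.030 for the difference of responses, and gadd45b ENSDARG00000027744 was 0.050 in mvp 7dpa against mvp sham hearts.

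With single libraries left out, mdm2 ranged from -0.17 to 0.092 in WT 7dpa against WT sham hearts, from -0.037 to 0.040 in mvp 7dpa against mvp sham hearts and from -0.087 to 0.17 for the difference of responses. ccng1 ranged from -0.41 to 0.098, from -0.031 to 0.049 and from -0.092 to 0.41 in the same comparisons, and from -0.37 to 0.14 in mvp 7dpa against WT 7dpa hearts. gadd45a ENSDARG00000043581 ranged from -0.15 to 0.34 in WT 7dpa against WT sham hearts, and gadd45a ENSDARG00000104571 from -0.17 to 0.037 in mvp 7dpa against WT 7dpa hearts.

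The replicate block left the numbers of called genes among the 10 at 3 in mvp 7dpa against mvp sham hearts, 7 in WT 7dpa against WT sham hearts, 8 between sham hearts, 4 between 7dpa hearts and 6 for the difference of responses. Between libraries with equal replicate numbers, the correlations of deviations from the group means ran from -0.049 to 0.060 over 18 pairs. With 3 libraries a group, these values cannot settle whether equal numbers mark pairs. Depth limits gadd45a and sesn2 most, with 8 to 103 counts a library.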
